A study of Homo sapiens with 6 samples.

Results

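SR proteins, hnRNP proteins and the SF3A and SF3B subunits, the main RNA-binding regulators and branch-site factors of pre-mRNA splicing, were examined in Cisplatin-treated HK-2 cells with and without knockdown of the N-acetyltransferase NAT10. Members were the genes named SRSF, HNRNP or SF3A and SF3B with a number or letter suffix that had at least 10 counts in at least 3 of the 6 libraries. The choice gave 55 of the 62754 genes counted: 12 SR genes, 34 hnRNP genes and 9 SF3 genes. Of the 34 hnRNP genes, 20 were protein-coding and 14 were pseudogenes that carry an hnRNP name. Another 19 genes had a matching name and too few counts, 4 of them protein-coding. Just inside the minimum lay the pseudogene HNRNPUP1, with 62 counts over all libraries, and all 55 members passed the filter on low counts used for testing.

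HK-2 is an immortalized human proximal tubule epithelial line grown without the flow and neighbouring cells of a kidney, and all 6 libraries came from bulk RNA of these cells under Cisplatin, a platinum drug that damages DNA. The libraries fell into a group transfected with a negative control siRNA (CP+siNC, n = 3) and a group transfected with a siRNA against NAT10 (CP+siNAT10, n = 3), with no group lacking Cisplatin. The labels number the cell samples without saying whether they were separate cultures, so p-values measure the spread between these samples, which may be technical. In bulk RNA, fewer cells of a kind and less RNA per cell cannot be told apart.

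Total counts were 19321665, 21602988 and 19464027 in the CP+siNC libraries and 20793709, 21531774 and 25192736 in the CP+siNAT10 libraries. Levels are given as CPM (counts scaled to the library total) or, between genes, as RPKM (CPM per kilobase of merged exons), both after TMM scaling. The sums of the marker lists are the exception: they were scaled to the library total alone, while the log2 fold changes beside them used TMM. Of the 18 proximal tubule markers, 9 had enough counts to be tested, led by GPX3, while SLC22A6 had no count and LRP2, the megalin gene, had at most 1 count per library. The summed level of the proximal tubule list was 249.8, 263 and 264 CPM in CP+siNC and 259.7, 265 and 260.2 CPM in CP+siNAT10, so the groups overlapped in the sum. Its genes moved in both directions by edgeR, with PAX8 (log2 fold change 0.59), CDH6 (0.47) and SLC5A2 (0.31) higher and GPX3 (-0.41) and GGT1 (-0.28) lower. The leukocyte list had a sum of 205, 197 and 214 CPM in CP+siNC and 293, 270 and 271 CPM in CP+siNAT10, nearly all from CD68, a lysosomal protein gene also active outside leukocytes. PTPRC, a leukocyte gene, had 8, 10 and 7 counts in CP+siNC and 10, 29 and 17 in CP+siNAT10 and was also called higher, whereas CD14, the other leukocyte gene tested, was not called (-0.029). The fibroblast and endothelium sum, mostly COL1A1, was 10.9, 12.4 and 10.8 CPM in CP+siNC and 14.1, 16.9 and 13.9 CPM in CP+siNAT10, and the distal nephron sum was 3.93, 4.26 and 3.19 against 2.84, 2.93 and 2.66 CPM. In the distal list AQP3 (-0.98) and GATA3 (-0.82) were lower by edgeR, CALB1, its most abundant gene, was not called (0.0077), and SLC12A3 and FXYD4 had no count. None of these 3 sums overlapped between groups. The epithelial sum, led by KRT8, did on this scale, at 2021, 2076 and 2016 CPM in CP+siNC and 2028, 2016 and 2029 CPM in CP+siNAT10. In that list KRT18 (-0.36) was lower, EPCAM (0.31) and CDH2 (0.20) were higher by edgeR, and CDH1 had 0 to 2 counts. The TMM factors were 0.9764, 0.993 and 0.9914 in CP+siNC and 1.0144, 1.0171 and 1.0083 in CP+siNAT10. Scaling by them would raise the control sums and lower the knockdown sums, so the epithelial overlap holds for library totals alone. For all marker lists, their part in the results below was not tested.

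Removal of introns is steered by proteins that bind the pre-mRNA. SR proteins carry arginine and serine repeats, bind exonic enhancers and help the early splicing complexes form, whereas hnRNP proteins coat nascent RNA and often act at silencers, so that the balance between both groups shapes exon choice. SF3A and SF3B are subcomplexes of the U2 small nuclear ribonucleoprotein and hold it on the intron branch site.

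Promoters were compared because they are a feature that the choice of members did not use. RefSeq promoters of 300 bases around the gene start (GRCh38.p14) were found for 38 of the 41 protein-coding members and searched on both strands for the ETS-type letters CCGGAAG, the CCAAT box, the TATAAA box and the YY1-type letters AAGATGGCG, which can overlap the end of the ETS-type letters. The letters CCGGAAG occurred in 6 of 8 SF3 promoters (75.0%), 3 of 19 hnRNP promoters (15.8%) and 2 of 11 SR promoters (18.2%), beside 10.3% of all 35116 promoters and 16.6% of the promoters of protein-coding genes tested. CCAAT occurred in 13 of 19 hnRNP promoters (68.4%), 1 of 8 SF3 promoters (12.5%) and 2 of 11 SR promoters (18.2%), beside 34.6% of all promoters and 34.7% of those of protein-coding genes tested. TATAAA was held by 5 of the 38 promoters (13.2%), by 11.5% of all and by 6.35% of those of protein-coding genes tested. AAGATGGCG was held by 2 of the 38, both of SF3 genes (2 of 8), by 1.75% of all and by 3.33% of those of protein-coding genes tested. Each member entered with 1 promoter, whereas the comparison sets kept every promoter entry of a gene. The set of protein-coding genes tested held 15404 promoters for 13438 genes, so the shares are not counted alike. A match describes letters and not a bound site.

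The promoters of SF3B6 (chr2:24076277-24076576, minus strand), SF3A3 (chr1:37989973-37990272, minus strand) and HNRNPC (chr14:21269393-21269692, minus strand) are shown 5′ to 3′ on the strand of the gene. These genes are among those that changed. SF3B6 and SF3A3 hold the letters CCGGAAG, and HNRNPC holds CCAAT and TATAAA. Capitals mark the searched motifs.
SF3B6: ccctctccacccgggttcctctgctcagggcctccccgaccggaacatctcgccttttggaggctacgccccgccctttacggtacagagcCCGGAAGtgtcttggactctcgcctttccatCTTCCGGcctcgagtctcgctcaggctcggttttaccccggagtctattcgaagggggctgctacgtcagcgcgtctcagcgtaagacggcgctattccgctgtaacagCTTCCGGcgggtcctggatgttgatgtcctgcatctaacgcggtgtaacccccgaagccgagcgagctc
SF3A3: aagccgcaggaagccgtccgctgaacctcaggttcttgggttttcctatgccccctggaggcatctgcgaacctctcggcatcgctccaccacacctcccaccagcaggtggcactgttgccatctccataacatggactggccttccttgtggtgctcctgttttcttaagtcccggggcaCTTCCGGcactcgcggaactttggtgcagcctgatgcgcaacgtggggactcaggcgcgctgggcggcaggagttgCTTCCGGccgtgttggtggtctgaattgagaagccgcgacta
HNRNPC: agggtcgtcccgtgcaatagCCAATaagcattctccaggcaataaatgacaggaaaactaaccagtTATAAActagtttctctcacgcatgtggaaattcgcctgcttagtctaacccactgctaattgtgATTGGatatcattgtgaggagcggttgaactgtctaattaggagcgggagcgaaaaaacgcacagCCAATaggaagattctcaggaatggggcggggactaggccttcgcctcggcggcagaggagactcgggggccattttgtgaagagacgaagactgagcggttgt
CCGGAAG on either strand appears in the promoter of SF3B6, which fell, and in that of SF3A3, which rose.

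NAT10, the target of the siRNA, was examined first as a check of the labels. Its level was 75.8, 71.4 and 73.2 CPM in CP+siNC and 41.3, 40.5 and 42.4 CPM in CP+siNAT10. Every knockdown library was below every control library, at 56.4% of the control mean. The log2 fold change was -0.82 (standard error, SE, 0.0426; adjusted p = 2.79e-15 by the edgeR quasi-likelihood test, Benjamini-Hochberg over all tested genes). The same test across 19874 genes gave 8771 genes with an adjusted p under 0.05, or 44.1%, of which 21.8% of the tested genes were higher and 22.3% lower in CP+siNAT10. Over all tested genes the median log2 fold change was 0.0070.

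Among the SR proteins, 7 of 12 fell in CP+siNAT10 and none rose by edgeR's quasi-likelihood test, beside 22.3% of all tested genes lower and 21.8% higher, and 26.2% and 27.3% of the protein-coding ones. The family's median log2 fold change was -0.10. By library size alone as the scaling, 4 of the SR genes were lower and 2, SRSF2 and SRSF3, were higher, whereas RLE and upper quartile scaling gave 7 lower and 0 higher, as TMM did. Without CP+siNAT10 replicate 2, 4 were lower. Changes were small: only SRSF12 and SRSF8 fell to 80% of the control level or less. Among all tested genes, 12.3% had a fall of at least that size with an adjusted p under 0.05 by edgeR. A rise of at least the same fold that also passed this threshold was seen in 11.1%.

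SRSF11, whose product is associated with U2AF, was the most abundant SR gene per length. It measured 1249, 1153 and 1127 CPM in CP+siNC and 1079, 1067 and 1118 CPM in CP+siNAT10. The groups did not overlap, but the lowest control and the highest knockdown library lay close together. Its log2 fold change was -0.11 (SE 0.0369, adjusted p = 0.0139 by edgeR's quasi-likelihood test). It missed the threshold under library size scaling, and when either CP+siNC replicate 1 or CP+siNAT10 replicate 2 was left out.

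SRSF1, the founding SR protein and a regulator of many alternative exons, measured 322, 301 and 327 CPM in CP+siNC and 276, 259 and 267 CPM in CP+siNAT10. All knockdown libraries were below all controls. Its log2 fold change was -0.24 (SE 0.0356, adjusted p = 1.99e-06 by edgeR's quasi-likelihood test). SRSF10, which acts as a splicing repressor when dephosphorylated, measured 392, 381 and 383 CPM in CP+siNC and 343, 344 and 352 CPM in CP+siNAT10, with groups apart. The log2 fold change was -0.15 (SE 0.0319, adjusted p = 0.000217 in the same edgeR test).

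SRSF8 and SRSF12 had the largest falls but few counts. SRSF8 measured 5.2, 5.79 and 5.35 CPM in CP+siNC and 3.7, 3.8 and 4.46 CPM in CP+siNAT10, with groups apart and a fall of 0.44 in log2 (adjusted p = 0.00351 by edgeR). SRSF12 measured 1.75, 1.73 and 2.13 CPM in CP+siNC and 1.38, 1.24 and 1.3 CPM in CP+siNAT10. The groups were apart, yet its log2 fold change of -0.52 (SE 0.204, adjusted p = 0.0407 by edgeR) rested on 33, 37 and 41 counts against 29, 27 and 33. The SRSF12 call was kept in only 1 of the 6 refits that left out a library, the refit without CP+siNC replicate 2, and it was also lost under library size scaling, with no filter, under DESeq2 and with a replicate block. SRSF5 fell by 0.15 on the log2 scale (adjusted p = 0.00114 by edgeR). SRSF9 fell by 0.088 on the log2 scale (adjusted p = 0.0387 by edgeR). Removal of CP+siNC replicate 3, or of CP+siNAT10 replicate 2 or 3, left SRSF9 outside the threshold, as did library size scaling, no filter on low counts, DESeq2 and a replicate block.

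The other 5 SR genes did not pass the test. SRSF2 had a log2 fold change of 0.066, SRSF3 0.051, SRSF7 -0.0059, SRSF4 -0.013 and SRSF6 -0.024. For SRSF2 the libraries were 73.8, 75.2 and 72.1 CPM in CP+siNC and 74.8, 75.5 and 80.9 CPM in CP+siNAT10, which overlap. Summed over the 12 SR genes, the RPKM was 593, 567 and 579 in CP+siNC and 551, 538 and 548 in CP+siNAT10, and all knockdown libraries were below all controls. The knockdown mean was 94.1% of the control mean, a difference of -34 RPKM that was -19.1 RPKM under library size scaling.

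**Figure D1:**
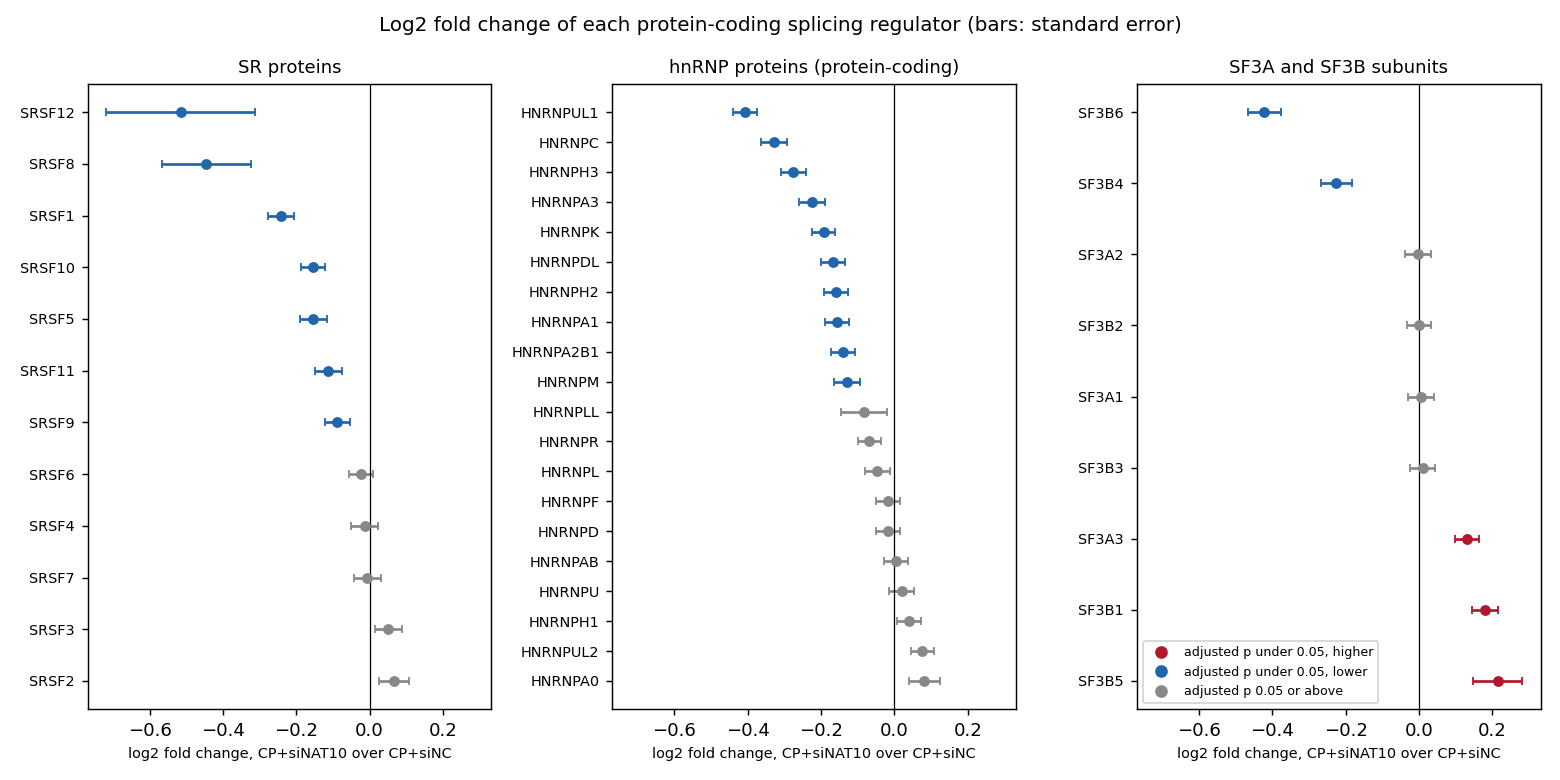
Log2 fold change of CP+siNAT10 over CP+siNC for each of the 41 protein-coding members, in 3 panels by family, with bars for the standard error. Blue points fell, red points rose and grey points did not pass adjusted p under 0.05 by edgeR; 7 SR, 10 hnRNP and 2 SF3 genes are blue and 3 SF3 genes are red.

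Of the 34 hnRNP genes, 11 fell and 1 rose by edgeR's quasi-likelihood test, beside 22.3% and 21.8% of all tested genes. The 20 protein-coding genes held 10 of the falls and none of the rises, beside 26.2% and 27.3% of all protein-coding genes tested, and their median log2 fold change was -0.11, whereas the median over all 34 was -0.040 and turned to 0.0028 when CP+siNC replicate 2 was left out. Scaling by library size alone gave 10 lower and 4 higher among the 34, the latter being HNRNPA0, HNRNPH1 and HNRNPUL2 beside the pseudogene HNRNPCP1. The groups did not overlap and were lower in CP+siNAT10 for 11 of the 34 hnRNP genes and 7 of the 12 SR genes, beside 25.7% of all tested genes, and higher for 4 hnRNP genes and no SR gene, beside 25.7%.

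HNRNPA1, which competes with SR proteins at splice sites, was the most abundant hnRNP gene per length and made up 15.6% of the family's RPKM in CP+siNC. It measured 2553, 2488 and 2556 CPM in CP+siNC and 2267, 2293 and 2259.7 CPM in CP+siNAT10. Controls were all higher than knockdown libraries. Its log2 fold change was -0.16 (SE 0.0329, adjusted p = 0.000283 by edgeR's quasi-likelihood test).

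HNRNPUL1, a relative of HNRNPU with a known role in DNA end processing, showed the largest fall of the family. It measured 243, 253 and 247 CPM in CP+siNC and 185, 189.5 and 186 CPM in CP+siNAT10. The knockdown libraries lay close together and well under every control, at 75.4% of the control mean. The log2 fold change was -0.41 (SE 0.0327, adjusted p = 3.11e-11 by edgeR's quasi-likelihood test). Its neighbour TGFB1 lies over it on the opposite strand with 28.7% of its counts and a log2 fold change of -0.64, and whether reads of the locus were split between both genes was not tested.

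HNRNPC, which binds uridine tracts and keeps cryptic exons out of transcripts, measured 597, 583 and 553 CPM in CP+siNC and 446, 473 and 461 CPM in CP+siNAT10. The groups stood apart, with a log2 fold change of -0.33 (SE 0.0349, adjusted p = 7.99e-09 by edgeR). HNRNPH3, of the family that binds runs of guanines, measured 583, 543 and 541 CPM in CP+siNC and 464, 457 and 457 CPM in CP+siNAT10. It too had groups apart, with a log2 fold change of -0.28 (SE 0.0341, adjusted p = 1.17e-07 by edgeR). HNRNPA3, a relative of HNRNPA1, measured 653, 604 and 631 CPM in CP+siNC and 548, 548 and 519 CPM in CP+siNAT10. Its groups did not overlap either, and the log2 fold change was -0.22 (SE 0.0351, adjusted p = 5.35e-06 by edgeR).

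The remaining protein-coding hnRNP genes that fell were HNRNPK, HNRNPDL, HNRNPH2, HNRNPA2B1 and HNRNPM, with log2 fold changes from -0.19 in HNRNPK to -0.13 in HNRNPM. Some close relatives fell together, as HNRNPA1, HNRNPA2B1 and HNRNPA3 did, and HNRNPH2 with HNRNPH3. Others were not called beside relatives that fell: HNRNPA0 (0.082), HNRNPH1, HNRNPUL2, and HNRNPD (-0.017) beside HNRNPDL. The relatives named here were chosen after their values were seen. The ratio of HNRNPUL1 to HNRNPUL2 per length was 0.725, 0.766 and 0.749 in CP+siNC and 0.516, 0.549 and 0.536 in CP+siNAT10, and that of HNRNPH3 to HNRNPH1 was 1.17, 1.15 and 1.11 against 0.92, 0.917 and 0.912. Neither ratio overlapped between groups, and these ratios were chosen after the values were seen. HNRNPH1 itself did not pass the test, with a log2 fold change of 0.041, and HNRNPUL2 did not, with 0.077 (adjusted p = 0.0555 by edgeR).

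Those not passing the test also included the scaffold protein gene HNRNPU, at 0.020, and HNRNPAB, at 0.0036, which was 264 RPKM in CP+siNC and 265 RPKM in CP+siNAT10. HNRNPR had groups apart but an adjusted p of 0.0822 by edgeR. HNRNPD, HNRNPF, HNRNPL, HNRNPLL and HNRNPA0 had log2 fold changes between -0.082 and 0.082. Summed over all 34 genes the RPKM was 2476, 2418 and 2397 in CP+siNC and 2252, 2253 and 2255 in CP+siNAT10, which do not overlap, at 92.7% of the control mean. The difference of -177 RPKM was -115 RPKM under library size scaling.

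The 14 pseudogenes share sequence with their parent genes, so their counts are uncertain. HNRNPCP1 measured 1.75, 2.38 and 2.13 CPM in CP+siNC and 2.85, 3.34 and 3.83 CPM in CP+siNAT10. It rose, opposite to its parent HNRNPC, with a log2 fold change of 0.68 (SE 0.167, adjusted p = 0.00141 by edgeR). HNRNPCP1 lies within KIAA0586 on the same strand, which has 761% of its counts and was not called (0.087), and the part of its reads was not tested. HNRNPCP2 measured 24.6, 25.7 and 21.1 CPM in CP+siNC and 20.5, 19.5 and 23 CPM in CP+siNAT10, overlapping between groups. Its log2 fold change of -0.18 (adjusted p = 0.0395 by edgeR) did not pass when replicate 1 or 2 of either group was left out, nor under library size scaling, DESeq2 or a replicate block. The other 12 did not pass, HNRNPUP1 at 0.86 having the largest value. Without CP+siNC replicate 2, 3 hnRNP genes were higher, all of them pseudogenes, with HNRNPUP1 at 1.20. HNRNPUP1 had 5, 10 and 5 counts in CP+siNC and 11, 12 and 19 in CP+siNAT10, so it met the minimum of 10 counts in 3 libraries only through the group in which it was high, and its value is partly built into its choice. Without CP+siNAT10 replicate 1 the number of higher hnRNP genes was 2.

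**Figure D2:**
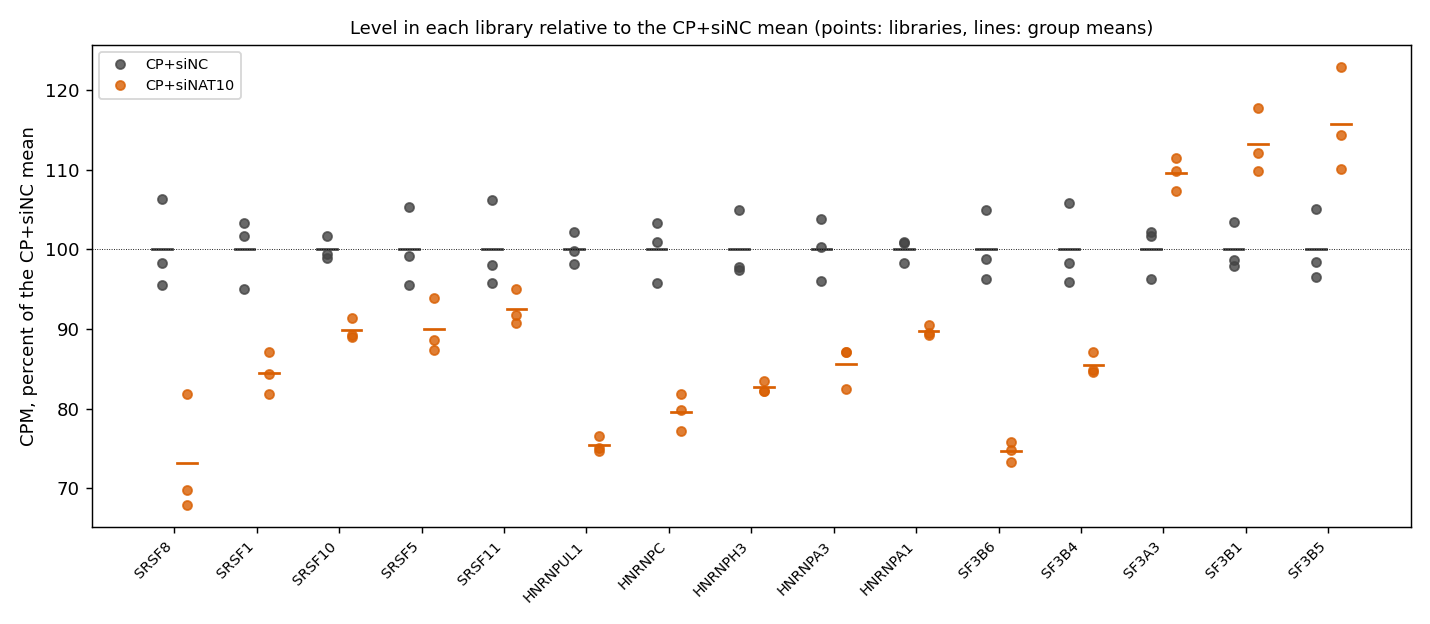
CPM in each library as a percentage of the CP+siNC mean for 15 members that fell or rose, with dark grey points for CP+siNC, orange points for CP+siNAT10 and lines for group means. SF3B6, HNRNPUL1 and SRSF8 lie lowest in CP+siNAT10 among the genes drawn, which do not include SRSF12, and SF3A3, SF3B1 and SF3B5 lie above their controls.

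The SF3 subunits did not share a direction, with 3 of 9 higher and 2 lower by edgeR's quasi-likelihood test, beside 21.8% and 22.3% of all tested genes and 27.3% and 26.2% of protein-coding ones. Their median log2 fold change was 0.0052, near 0, and went from -0.0112 without CP+siNC replicate 3 to 0.0152 without CP+siNC replicate 1, so it has no sign of its own. Per length, SF3A3 was the most abundant subunit, at 99.8 RPKM in CP+siNC, followed by SF3B6 at 50.9, SF3B2 at 47.4 and SF3A2 at 41.0 RPKM. SF3B3 was the lowest, at 10.9 RPKM, although its annotated length of 12416 bases joins the exons of all isoforms and lowers the value. Summed RPKM was 364, 361 and 358 in CP+siNC and 361, 356 and 361 in CP+siNAT10, which overlap.

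SF3B6, whose product contacts the branch point adenosine, had the largest change of the SF3 genes. It measured 55.1, 56.6 and 60.1 CPM in CP+siNC and 43.4, 42.0 and 42.8 CPM in CP+siNAT10. All knockdown libraries were below all controls, at 74.6% of the control mean, and the log2 fold change was -0.42 (SE 0.0447, adjusted p = 7.29e-09 by edgeR's quasi-likelihood test). SF3B4, which contacts RNA near the branch site, measured 64.2, 62.6 and 69.1 CPM in CP+siNC and 56.9, 55.2 and 55.4 CPM in CP+siNAT10. The groups were apart, with a log2 fold change of -0.23 (SE 0.0432, adjusted p = 8.82e-05 by edgeR).

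SF3A3, part of the SF3A subcomplex, rose from 397, 395 and 374 CPM in CP+siNC to 433, 417 and 427 CPM in CP+siNAT10. No knockdown library overlapped the controls, and the log2 fold change was 0.13 (SE 0.0335, adjusted p = 0.0020 by edgeR). SF3B1, the largest SF3B subunit and the one that holds the branch site duplex, measured 261, 249 and 247 CPM in CP+siNC and 277, 283 and 297 CPM in CP+siNAT10. Its groups did not overlap, and the log2 fold change was 0.18 (SE 0.0348, adjusted p = 9.12e-05 by edgeR). SF3B5, a small subunit, measured 16.0, 17.1 and 15.7 CPM in CP+siNC and 17.9, 18.6 and 20 CPM in CP+siNAT10, with groups apart and a log2 fold change of 0.21 (SE 0.0668, adjusted p = 0.00978 by edgeR). SF3B5 did not pass when CP+siNAT10 replicate 3 was left out, nor under DESeq2.

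SF3A1, SF3A2, SF3B2 and SF3B3 lay between -0.0019 and 0.010 on the log2 scale and did not pass the test. The ratio of SF3B6 to SF3B1 per length, chosen after the values were seen, was 1.96, 2.11 and 2.26 in CP+siNC and 1.45, 1.38 and 1.34 in CP+siNAT10. Each knockdown library lay below each control library.

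**Figure D3:**
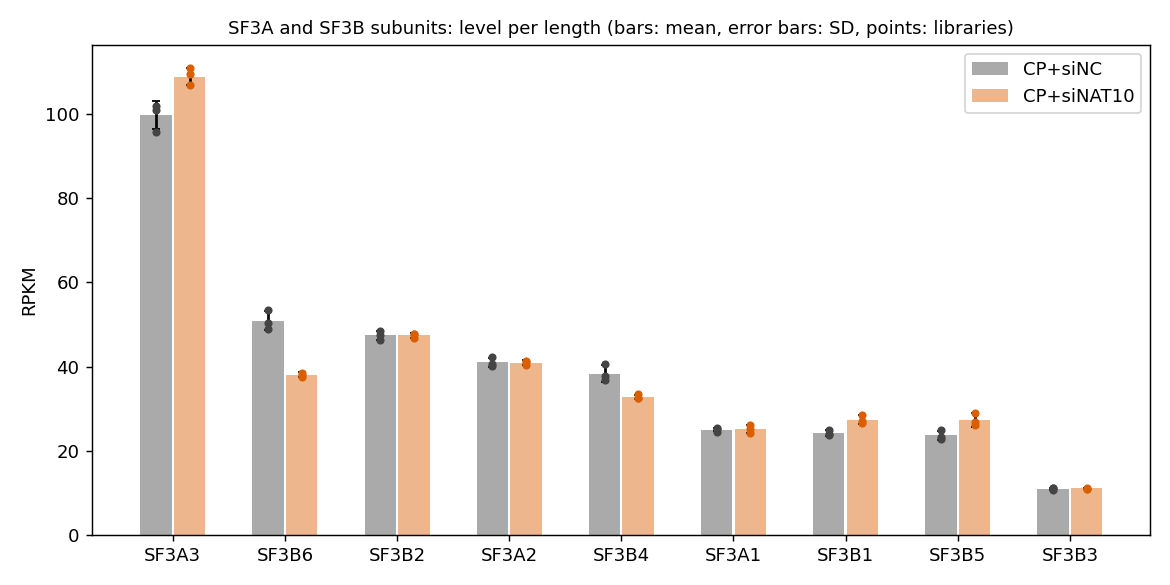
Level per length (RPKM) of the 9 SF3 subunits in order of the CP+siNC level, with bars for the group mean, error bars for the SD and points for the 3 libraries of each group. SF3A3 stands highest in both groups and SF3B6 drops from 50.9 to 38.0 RPKM.

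Annotated transcripts differ between the families in a way the choice did not use. All 12 SR genes have a transcript annotated in GENCODE 29 as a target of nonsense-mediated decay, beside 13 of 20 protein-coding hnRNP genes (65.0%), 3 of 9 SF3 genes (33.3%) and 43.1% of the 13438 protein-coding genes tested. Counts per gene add such transcripts to the productive ones, so a change in the share of either was not tested.

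Genes of the same loci also carry counts. Of the 41 protein-coding members, 26 are overlapped by another gene, and 15 by a gene with over 5% of the member's counts. Gene symbols that join neighbours, such as HNRNPUL2-BSCL2 with 94.4% of the count of HNRNPUL2 and RPL36A-HNRNPH2 with 265% of the count of HNRNPH2, mean that reads of a locus may be shared. DYNLL1, over SRSF9 on the opposite strand, has 528% of its counts and a log2 fold change of -0.58. On the same strand as SRSF1, ENSG00000266086 has 87.8% of its counts and a log2 fold change of -0.23, close to the -0.24 of SRSF1. NFE2L2, over HNRNPA3, has 45.8% and -0.15, CBX3, over HNRNPA2B1, has 33.5% and -0.34, and RUFY2, over HNRNPH3, has 18.3% and -0.41. Other neighbours were higher by edgeR: PLEKHJ1 over SF3A2 (33.7%, 0.24), ENSG00000268083 over HNRNPL (37.4%, 0.098) and PBLD over HNRNPH3 (2.71%, 0.20). The library kit marked strand, but the strand setting used in counting is not given in the sources used here, and the part of neighbours in these results was not tested.

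DDX5 and DDX17 are helicases that work with splicing regulators. DDX17 measured 246, 247 and 243 CPM in CP+siNC and 223, 232 and 225 CPM in CP+siNAT10, with groups apart. The fall was -0.12 on the log2 scale (SE 0.0325, adjusted p = 0.00439 by edgeR). DDX5 had a log2 fold change of 0.047 and did not pass (adjusted p = 0.277 by edgeR), though it passed as higher under library size scaling.

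Other splicing genes were counted in 10 lists, DDX5 and DDX17 included. Of 187 listed genes 180 were tested, 62 were higher and 47 lower by edgeR, where 21.8% and 22.3% of all tested genes and 27.3% and 26.2% of protein-coding ones were, and the median log2 fold change was 0.034. All listed genes tested were protein-coding. In the list of SR protein kinases, phosphatases and importins, which also holds the scaffold attachment factors SAFB and SAFB2, 8 of 16 rose, SAFB and SAFB2 among them, and 3 fell, beside 27.3% and 26.2% of protein-coding genes, and 4 rose when CP+siNC replicate 2 was left out. SRPK1, the main cytoplasmic SR kinase, measured 137, 132 and 117 CPM in CP+siNC and 102, 102 and 104 CPM in CP+siNAT10. It fell, with groups apart and a log2 fold change of -0.33 (SE 0.0428, adjusted p = 3.21e-07 by edgeR). SRPK2, another SR kinase, measured 39.2, 36.8 and 38.0 CPM in CP+siNC and 48.5, 48.9 and 47.0 CPM in CP+siNAT10. It rose, with a log2 fold change of 0.34 (SE 0.0458, adjusted p = 4.7e-07 by edgeR).

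The shares of protein-coding genes to hold beside the next counts are again 27.3% higher and 26.2% lower. Among SR-related proteins and U2AF, 6 of 21 rose (3 without CP+siNC replicate 2) and 5 fell, led by SCAF4 at 0.36 and SCAF8 at -0.33 on the log2 scale. Of 17 other U2 proteins 5 rose and 7 fell, with DDX46 at -0.42, SNRPA1 at -0.27 and RBM5 at 0.26. Sm and LSm ring proteins had 4 higher and 7 lower of 15, with 2 higher under DESeq2, without CP+siNC replicate 2 or without CP+siNAT10 replicate 1, from SNRPG at -0.51 to LSM7 at 0.30. Of 12 U1 proteins 6 rose and 3 fell (0 under library size scaling, 1 without CP+siNAT10 replicate 2), with PRPF40B at 0.30 and SNRPA at -0.15. In the U4/U6.U5 list 6 of 20 rose and 4 fell, with SART1 at 0.27 and PRPF38A at -0.27.

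PRP19 complex and late proteins had 10 of 23 higher and 5 lower, beside 27.3% and 26.2% of protein-coding genes, with CWC22, which links splicing to exon junction complexes, at 0.50 and BCAS2 at -0.23. Of the 36 tested hnRNP-like regulators outside the naming rule, 11 rose and 8 fell (5 under library size scaling, with no filter, under DESeq2 or without CP+siNAT10 replicate 3), led by MBNL2 at -0.91 and PTBP3 at -0.50, and by KHDRBS3 at 0.95 and CELF1 at 0.51. MBNL2, a regulator of alternative exons, measured 17.3, 19.2 and 16.7 CPM in CP+siNC and 9.36, 9.01 and 9.82 CPM in CP+siNAT10, with every knockdown library below every control. Nonsense-mediated decay factors had 6 of 18 higher and 4 lower, with UPF3B at -0.43, NBAS at 0.56 and SMG6 at 0.36. NBAS, with 1.17, 1.96 and 1.71 CPM in CP+siNC and 1.9, 2.7 and 2.56 CPM in CP+siNAT10, overlapped between groups.

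**Figure D4:**
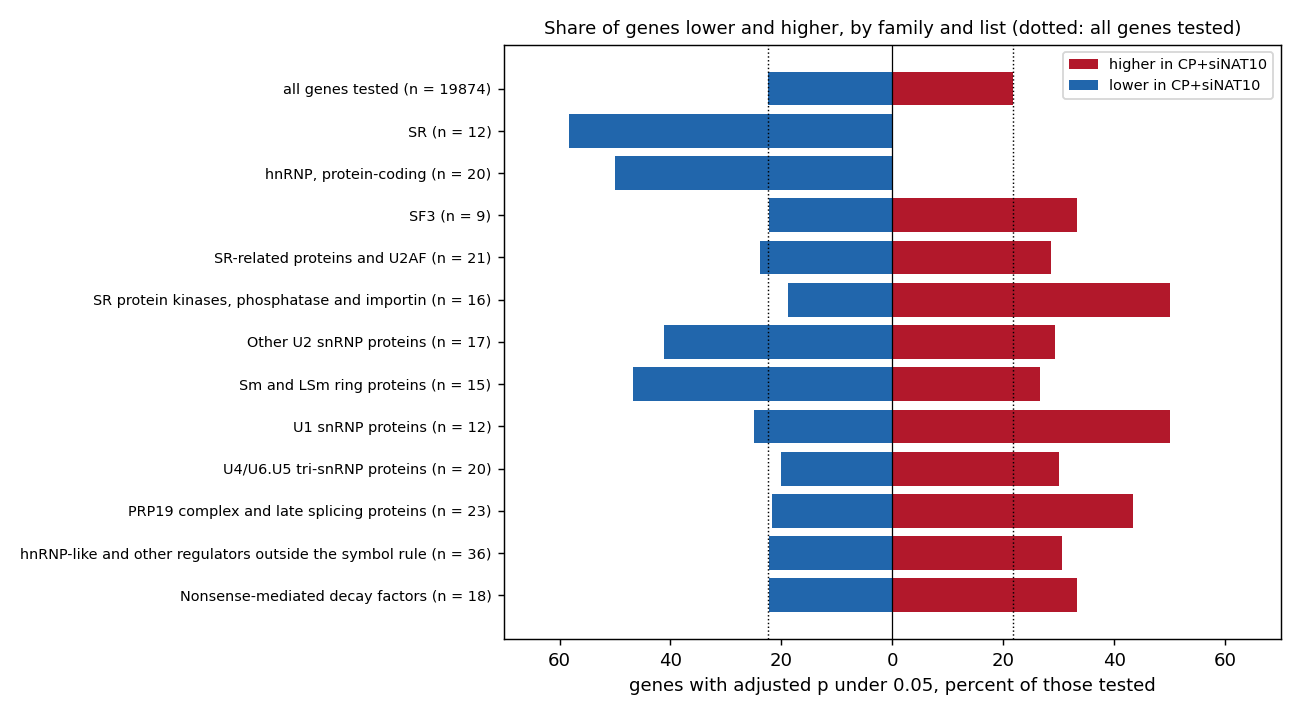
Percentage of tested genes that were lower (blue, to the left) or higher (red, to the right) in CP+siNAT10 with adjusted p under 0.05 by edgeR, for all genes, SR, protein-coding hnRNP and SF3 genes and 9 lists, with dotted lines at the values for all genes; the kinase list includes SAFB and SAFB2. SR and protein-coding hnRNP genes show bars to the left alone, and the other sets show both directions.

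Of the 24 members that fell or rose, 19 passed the threshold with the same sign in every other scaling, filter, test and omission of a library that was tried, and 5 missed it at least once: SRSF9, SRSF11, SRSF12, HNRNPCP2 and SF3B5.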

How the data were processed

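The counts used here were deposited by the authors as a table of raw gene counts for 6 libraries, 3 CP+siNC and 3 CP+siNAT10. The submitters' processing notes name Trimmomatic 0.36, STAR 2.5.3a, featureCounts of Subread 1.5.1 and edgeR 3.12.1. The library kit adds UMIs, meant for removing PCR duplicates, but whether reads were merged by UMI, and the annotation and strand setting, are not given in the sources used here, so counts may include PCR copies.

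Counts were tested with edgeR 4.0.16 (R 4.3.3): filterByExpr with a minimum of 10 counts, TMM scaling, the quasi-likelihood test and Benjamini-Hochberg adjustment over all 19874 tested genes. The biological coefficient of variation was 3.00%. RPKM used the deposited gene length. Alternatives were other scalings (RLE, upper quartile, library size), other filters, DESeq2 1.42.0, edgeR's exact test, a replicate block and leaving out each library. Python 3.11.15, pandas 2.3.3 and matplotlib 3.10.9 did the rest. The fits were tested on simulated data. Gene types come from GENCODE 29. Members and lists were chosen with earlier results of these data known.

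Genes named in the text are NAT10, DDX5 and DDX17, the most abundant member per length of each family, up to 4 called members with the largest rise and up to 4 with the largest fall, and up to 2 per direction in each other list. Other members named outside this rule, and the ratios, were chosen after their values were seen.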

Additional observations from a re-analysis of the deposited data

How the results depend on the processing

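Other settings, values from the same 6 libraries. With library size scaling the SR genes had 2 higher and 4 lower and the hnRNP genes 4 higher. The summed level differed by -19.1 (SR), -115 (hnRNP) and 7.6 (SF3) RPKM, and the median log2 fold change was -0.0022 for hnRNP and 0.0432 for SF3. hnRNP genes had 2 higher with no filter on low counts and a median of -0.0862 with the stricter filter. For the protein-coding members alone they had 0 higher and a median of -0.1052.

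Leaving out each library gave 4 to 7 SR genes lower (4 without CP+siNAT10 replicate 2), 1 to 3 hnRNP genes higher (3 without CP+siNC replicate 2) and a hnRNP median from -0.0804 to 0.0028, which reversed without CP+siNC replicate 2. The SF3 median, at 0.0052 with all libraries, went from -0.0112 (without CP+siNC replicate 3) to 0.0152.

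A replicate block gave 5 SR genes and 10 hnRNP genes lower, with 8526 genes called. Deviations from the group mean over all tested genes had correlations of -0.0423, 0.0106 and -0.1428 between libraries of the same replicate number. Between different numbers the correlations ran from -0.1146 to 0.1469. With 3 libraries per group these values cannot decide whether replicates were paired.

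Of the 44 members followed gene by gene across settings, 11 that did not pass the test had a reversed sign somewhere. The other 11 members, all pseudogenes that did not pass with all libraries, entered the family counts of each setting in which they were tested. Their single values were not listed, so any that passed in another setting are not named here. Under library size scaling the log2 fold change was 0.025 (SRSF4), 0.032 (SRSF7), 0.0145 (SRSF6), 0.0213 (HNRNPD), 0.0207 (HNRNPF), 0.0375 (SF3B2) and 0.0361 (SF3A2). With no filter it was 0.0057 (SRSF7), 0.0108 (SF3B2) and 0.0095 (SF3A2). With upper quartile scaling it was -0.0017 (HNRNPAB) and -3.4e-05 (SF3A1), and with the stricter filter -0.00077 (HNRNPAB). Leaving out each library gave ranges of -0.0472 to 0.0375 (SRSF4), -0.0436 to 0.027 (SRSF7), -0.0059 to 0.0355 (HNRNPU), -0.05 to 0.0014 (HNRNPD), -0.0206 to 0.0183 (HNRNPAB), -0.0384 to 0.0026 (HNRNPF), -0.0208 to 0.013 (SF3B2), -0.0055 to 0.019 (SF3B3), -0.0197 to 0.0174 (SF3A2) and -0.0206 to 0.0322 (SF3A1). The cause was not tested.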
